A study of Mus musculus with 8 samples.

Results

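The genes examined were 10 whose transcripts stood lower in EGFP-positive than in EGFP-negative CD4+ T cells of mice with either a wild-type or a mutant Foxp3 allele: Pdlim4, Als2cl, Amigo2, Dzip1, Enc1, Klk1, Lyst, Nacc2, Ntrk3 and Rflnb. They were selected on these measurements, by their lower level in EGFP-positive than in EGFP-negative arrays with both alleles, so the size and direction of those falls are given as a description and without a test. All probe sets whose platform symbol was 1 of the 10 names were taken, 35 of 45037 probe sets tested and 10 of 18193 genes with a probe set. RNA came from mouse CD4+ T cells sorted by fluorescence, and each sample was hybridised to 1 Affymetrix array. The groups were arrays labelled delta EGFP+ (n = 3), WT EGFP+ (n = 3), delta EGFP- (n = 1) and WT EGFP- (n = 1). In every group the mice carried a Foxp3 allele with an EGFP tag, which was the mutant allele named delta or the wild-type allele (WT), and the design text describes the EGFP+ cells as from hemizygous males. The sources used here give no age, no strain and no description of the mutation, nor do they state whether replicates came from separate animals, so every p-value measures only the spread between these arrays, which may be technical.

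Foxp3 is the X-linked transcription factor of regulatory T cells. It binds DNA through a forkhead domain, works together with factors such as NFAT and Runx1, and is known both to raise genes of the regulatory program and to hold down genes of conventional T cells. Regulatory T cells also receive signals from the antigen receptor and from IL-2 that act without Foxp3, and an EGFP tag on a mutant allele marks cells that have switched the locus on. The series' title speaks of precursor cells without a functional Foxp3 protein, and the comparison of the alleles asks which of the falls are seen with the delta allele.

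The labels were read against the targeted gene first. The Foxp3 probe set stood at 11.10, 11.51 and 11.21 (log2 intensity) in the arrays labelled delta EGFP+ and at 6.14 in the delta EGFP- array, against 4.75, 4.86 and 4.64 in the arrays labelled WT EGFP+ and 4.52 in the WT EGFP- array. The low level in the WT EGFP+ arrays goes against their label, and the place of the probes relative to the changed parts of either allele is not given, so each direction between the alleles is that of the labels. Ikzf2, which encodes the Ikaros family factor Helios, read 12.12, 12.11 and 12.09 in the delta EGFP+ arrays, 11.48 in the delta EGFP- array, 12.26, 12.13 and 12.09 in the WT EGFP+ arrays and 7.98 in the WT EGFP- array. The delta EGFP- array was thus close to the EGFP+ arrays in Ikzf2, while the WT EGFP- array was not. Of the markers of CD4 T cells, 6 of 7 were measured, with a summed intensity of 24760 to 26883 in the delta EGFP+ arrays, 28122 to 30323 in the WT EGFP+ arrays, 26645 in the delta EGFP- array and 29117 in the WT EGFP- array. Median intensity per array lay between 53.3 and 54.8. Precision is limited by how few arrays there were, 8 in all.

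All values below are log2 RMA intensities or differences between them, and the median of all probe sets was 5.76. For each gene the leading probe set is the one for which the smaller of its falls, with the delta or with the WT allele, was largest. Over the 10 leading probe sets the difference of EGFP+ from EGFP- arrays had a median of -2.24 with the delta allele (-3.36 to -1.60) and of -1.94 with the WT allele (-4.56 to -1.21), beside a median of 0.02 and -0.02 over all genes. In each of the 10, all 3 EGFP+ arrays of an allele lay below its EGFP- array. The same was true of 28 of all 35 probe sets with both alleles, against 10.5% of all probe sets, and 19 of the 35 were at least 2-fold lower with both alleles, against 0.204%. In limma's fit 11 of the 35, at least 1 for each gene, were lower past the adjusted threshold with both alleles, against 0.0311% of all probe sets, where 0.0577% were lower with the delta and 0.395% with the WT allele. That count was 14 without WT EGFP+ replicate 2, between 1 and 3 without any 1 of the other 5 EGFP+ arrays, and 0 with the title series as a block. Since the genes were chosen for these falls, nothing is read from those counts. In bulk RNA of this kind, fewer cells of a type and less RNA per cell cannot be told apart.

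**Figure D1:**
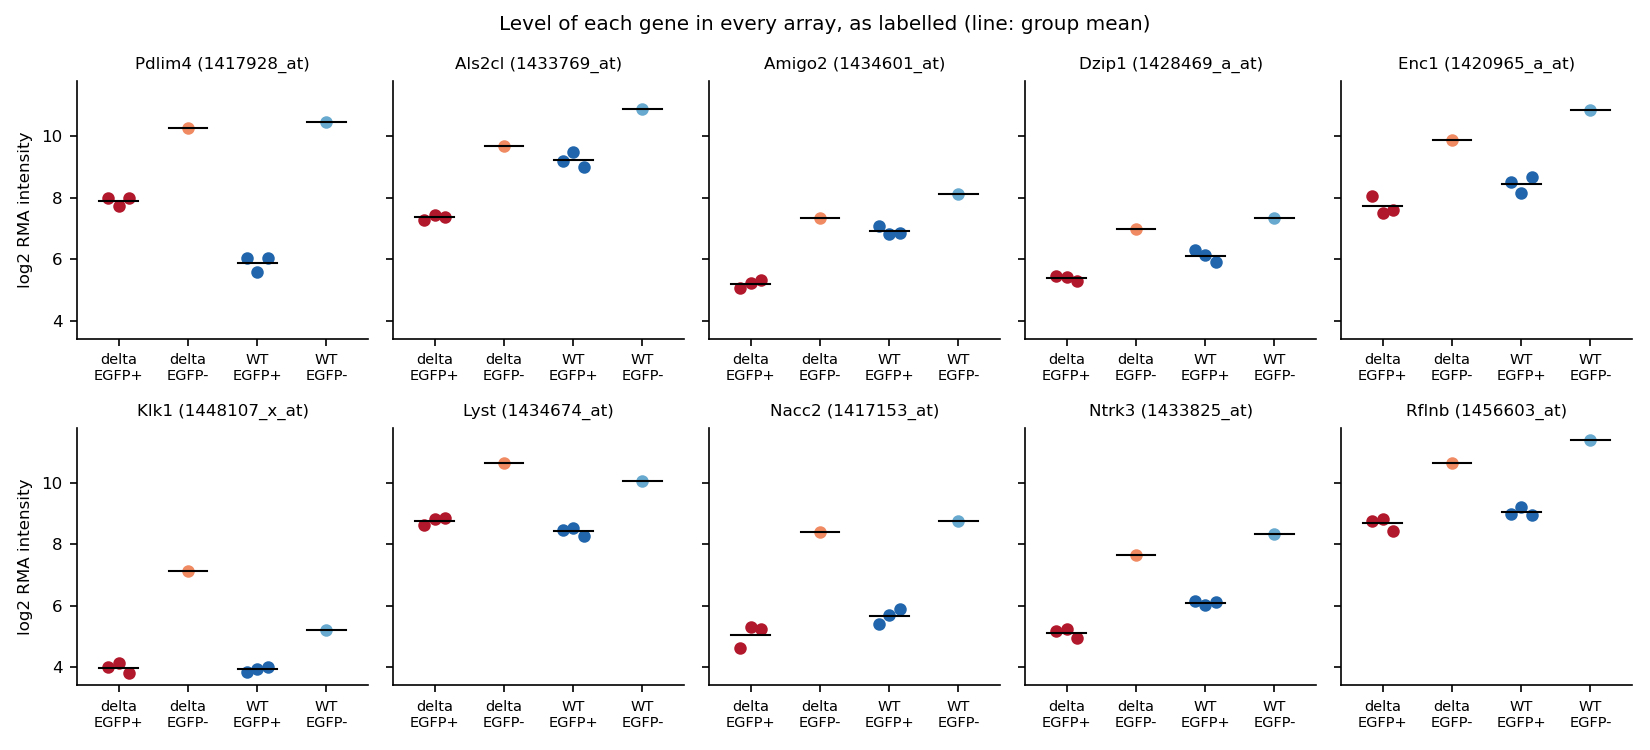
Log2 RMA intensity of the leading probe set of each gene in every array, with groups from left to right labelled delta EGFP+, delta EGFP-, WT EGFP+ and WT EGFP-; points are arrays and lines are group means. In each panel the EGFP+ arrays lie below the EGFP- array of the same allele, and Pdlim4 is the panel in which the delta EGFP+ arrays lie furthest above the WT EGFP+ arrays, by 2.01.

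Among the genes that act on the cytoskeleton, Pdlim4 fell least evenly. It encodes an adaptor with a PDZ and a LIM domain that binds alpha-actinin on actin fibres, and it has 1 probe set here (1417928_at). Its level was 7.99, 7.74 and 7.99 in the arrays labelled delta EGFP+ and 10.26 in the delta EGFP- array, a 5.11-fold lower level. It was 6.04, 5.59 and 6.05 in the arrays labelled WT EGFP+ and 10.45 in the WT EGFP- array, a 23.5-fold lower level. The EGFP- arrays of the alleles thus stood within 0.19 of each other, whereas the delta EGFP+ arrays lay above all WT EGFP+ arrays. The fall with the delta allele was 51.7% of that with the WT allele on the log2 scale.

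Rflnb encodes refilin B, a partner of filamins that helps to bundle actin. Its leading probe set (1456603_at) read 8.77, 8.83 and 8.44 in the delta EGFP+ arrays against 10.65 in the delta EGFP- array, and 8.97, 9.20 and 8.95 in the WT EGFP+ arrays against 11.40 in the WT EGFP- array. The falls were 3.93-fold with the delta allele and 5.14-fold with the WT allele. Its other probe sets fell too, 1429764_at by 2.08 with the delta and 1.90 with the WT allele, and 1429765_at by 1.09 and 1.26. All 3 probe sets of Rflnb therefore fell with both alleles, and it remained well expressed, with percentile ranks of 80.5 to 84.1 for its leading probe set in the delta EGFP+ arrays.

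Enc1 encodes a Kelch and BTB protein that binds actin. In probe set 1420965_a_at, the leading one, it read 8.06, 7.51 and 7.62 in the delta EGFP+ arrays against 9.88 in the delta EGFP- array, and 8.53, 8.15 and 8.68 in the WT EGFP+ arrays against 10.84 in the WT EGFP- array. The level was 4.42-fold lower with the delta allele and 5.22-fold lower with the WT allele. Probe set 1450061_at differed by -1.69 and -2.04, while 1420964_at, which stood near 5.2 in the EGFP+ arrays of both labels, differed by -0.42 and -0.13.

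Of the genes of transcription and signalling, Nacc2, a BTB protein that represses transcription, had the deepest fall with the delta allele. The level in probe set 1417153_at was 4.64, 5.30 and 5.24 in the delta EGFP+ arrays against 8.41 in the delta EGFP- array, and 5.40, 5.71 and 5.91 in the WT EGFP+ arrays against 8.75 in the WT EGFP- array. The differences were -3.36 and -3.08. Both groups of EGFP+ arrays stood in the lower part of the array, with mean levels of 5.06 and 5.67 that lie under the median of all probe sets. The probe sets 1417152_at and 1429582_at differed by -1.31 and -1.07 with the delta allele and by -1.90 and -1.55 with the WT allele. The probe set with the highest mean level, 1447608_x_at, differed by only -0.11 and -0.57; the suffix x marks sets whose probes can match other transcripts.

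Dzip1 encodes a zinc finger protein at the base of the cilium that takes part in hedgehog signalling, a role known from zebrafish. Probe set 1428469_a_at led with 5.47, 5.43 and 5.30 in the delta EGFP+ arrays against 7.0 in the delta EGFP- array, and 6.29, 6.15 and 5.92 in the WT EGFP+ arrays against 7.36 in the WT EGFP- array. The more abundant 1452792_at differed by -1.83 and -1.05. Probe set 1443772_at read 5.77, 5.64 and 6.97 in the delta EGFP+ arrays, so that replicate 3 stood apart, with a difference of -1.0 there and of -1.62 with the WT allele. The other 2 sets, 1421542_at and 1452793_at, stood at group means of 4.5 and 4.53 in the delta and 4.30 and 4.80 in the WT EGFP+ arrays, and differed by 0.46 and -0.05 with the delta allele and by -0.06 and -0.40 with the WT allele.

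Als2cl, related to the RAB5 exchange factor alsin, fell further with the delta allele. In probe set 1433769_at it stood at 7.29, 7.43 and 7.38 in the delta EGFP+ arrays against 9.70 in the delta EGFP- array, a 5.05-fold lower level. It read 9.21, 9.48 and 9.01 in the WT EGFP+ arrays against 10.87 in the WT EGFP- array, a 3.11-fold lower level. The delta EGFP- array was already 1.17 below the WT EGFP- array. The second set, 1427533_at, differed by -1.76 and -1.29.

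The surface molecules were Ntrk3 and Amigo2. Ntrk3 encodes TrkC, the receptor tyrosine kinase for neurotrophin-3. The leading set, 1433825_at, read 5.18, 5.24 and 4.95 in the delta EGFP+ arrays against 7.66 in the delta EGFP- array, and 6.16, 6.03 and 6.14 in the WT EGFP+ arrays against 8.35 in the WT EGFP- array, differences of -2.54 and -2.24. It has 8 probe sets, of which 1425071_s_at differed by -0.90 and -1.85 and 1425070_at by -0.90 and -0.83. The other 5 lay between -0.52 and 0.06 with the delta allele and between -0.37 and 0.07 with the WT allele. The fall of Ntrk3 thus shows in some of its probe sets and not in others.

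Amigo2 encodes an adhesion molecule with leucine-rich repeats and an immunoglobulin domain. Its leading probe set (1434601_at) read 5.07, 5.25 and 5.32 in the delta EGFP+ arrays against 7.35 in the delta EGFP- array, and 7.08, 6.83 and 6.87 in the WT EGFP+ arrays against 8.13 in the WT EGFP- array. The differences were -2.14 with the delta and -1.21 with the WT allele. Its other set, 1447769_x_at, differed by -0.11 and -0.10.

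Lyst encodes a BEACH domain protein that controls the size of lysosomes and lytic granules and is mutated in beige mice. Probe set 1434674_at, the leading one, read 8.62, 8.81 and 8.85 in the delta EGFP+ arrays against 10.63 in the delta EGFP- array, and 8.48, 8.52 and 8.28 in the WT EGFP+ arrays against 10.05 in the WT EGFP- array. The levels were 3.65-fold and 3.09-fold lower. A second set, 1421384_at, differed by -1.48 and -1.30, and the third, 1425973_at, by -0.05 and -0.11.

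Klk1 encodes tissue kallikrein, a secreted serine protease that releases kinins. Its leading probe set (1448107_x_at) read 4.0, 4.14 and 3.81 in the delta EGFP+ arrays against 7.12 in the delta EGFP- array, and 3.86, 3.95 and 4.01 in the WT EGFP+ arrays against 5.22 in the WT EGFP- array. Both groups of EGFP+ arrays stood at the bottom of the scale, between the 5.1 and the 12.4 percentile in the delta and between the 6.3 and the 9.1 percentile in the WT arrays. The delta EGFP- array lay 1.91 above the WT EGFP- array, with no replicate of either. Probe set 1415837_at differed by -2.81 and -0.84, while 1455977_x_at differed by -0.26 and -0.28 and the brightest, 1460050_x_at, by 0.08 and -0.17. Klk1b27, a neighbouring kallikrein gene of close sequence, read 5.97, 4.76 and 4.90 in the delta EGFP+ arrays and 6.98 in the delta EGFP- array, against 4.48, 4.63 and 4.45 in the WT EGFP+ arrays and 4.64 in the WT EGFP- array. Probes of these genes may share targets, so the level of Klk1 is uncertain.

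**Figure D2:**
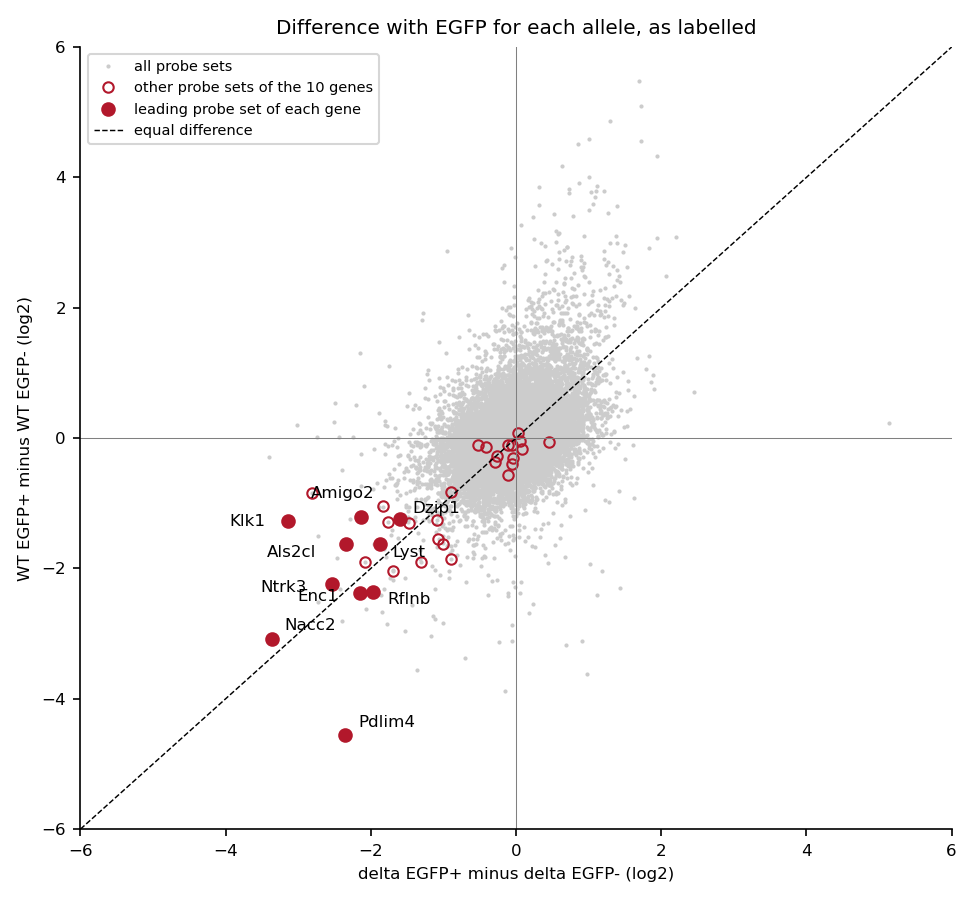
Log2 difference of EGFP+ from EGFP- arrays with the delta allele (horizontal) and with the WT allele (vertical), by label, for all 45037 probe sets (grey), the leading probe set of each gene (filled) and the other probe sets of the 10 genes (open); the dashed line marks equal differences. Among the leading sets Pdlim4 lies furthest below the line, at -2.35 and -4.56, and Klk1 furthest above it, at -3.14 and -1.28. A group of open points lies near 0.

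RefSeq promoter windows (build GRCm38.p6, the 250 bases before an annotated start) were found for 8 of the 10 genes, 12 windows in all. Both strands were searched for the forkhead words GTAAACA and ATAAACA, the NFAT word GGAAAA and the Runx word TGTGGT. The forkhead words were in 3.17% and 4.16% of all 32851 windows and in 0 of the 12. GGAAAA was in 20.4% of all windows and in 1 of the 12, a downstream start of Nacc2, and TGTGGT was in 14.0% and in 1 of the 12, a start of Dzip1. A match is a description and not a binding site, and the absence of a word says only that its letters are not in the window. G and C made up at least 53.2% of each window, beside a median of 52.4% over all windows. Shown are the windows of the gene that stood higher and of a gene that stood lower in delta than in WT EGFP+ arrays, Pdlim4 (chr11:54069018-54069267, minus strand) and Als2cl (chr9:110879924-110880173, plus strand), and those that hold a match, Nacc2 (chr2:26092397-26092646, minus strand) and Dzip1 (chr14:118923168-118923417, minus strand). Each runs 5′ to 3′ in the direction of the gene, and capitals mark the matched words, which here lie on the opposite strand.
Pdlim4: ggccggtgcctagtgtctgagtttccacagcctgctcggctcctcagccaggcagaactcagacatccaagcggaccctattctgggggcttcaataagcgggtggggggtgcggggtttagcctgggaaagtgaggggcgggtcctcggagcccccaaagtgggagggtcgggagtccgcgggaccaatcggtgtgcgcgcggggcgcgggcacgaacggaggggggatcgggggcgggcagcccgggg
Als2cl: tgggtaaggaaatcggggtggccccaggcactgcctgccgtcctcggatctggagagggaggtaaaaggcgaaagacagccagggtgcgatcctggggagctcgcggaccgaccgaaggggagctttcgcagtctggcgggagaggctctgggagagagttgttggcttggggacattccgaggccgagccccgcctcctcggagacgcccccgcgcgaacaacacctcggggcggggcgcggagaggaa
Nacc2: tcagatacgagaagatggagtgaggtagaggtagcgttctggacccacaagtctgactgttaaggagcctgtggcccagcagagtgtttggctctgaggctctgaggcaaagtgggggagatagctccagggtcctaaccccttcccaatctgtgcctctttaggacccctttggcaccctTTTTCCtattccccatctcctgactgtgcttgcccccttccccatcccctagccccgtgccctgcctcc
Dzip1: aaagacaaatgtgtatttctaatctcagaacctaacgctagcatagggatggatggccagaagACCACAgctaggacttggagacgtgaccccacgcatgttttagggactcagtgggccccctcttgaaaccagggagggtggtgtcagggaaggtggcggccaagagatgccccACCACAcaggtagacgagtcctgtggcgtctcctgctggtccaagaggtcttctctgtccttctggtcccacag

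The level in EGFP+ cells was then compared between the alleles, a comparison of 3 against 3 arrays that was not used to choose the genes, although it shares its EGFP+ arrays with those that were. Of the 35 probe sets, 8 passed limma's moderated test after Benjamini-Hochberg adjustment over all probe sets (22.9%, against 12.7% of all probe sets): 1 was higher in the arrays labelled delta EGFP+ (against 7.35%) and 7 were lower (20.0%, against 5.39%). The 7 lower sets belong to Als2cl, Amigo2, Dzip1, Enc1 and Ntrk3, and sets of the same gene are not independent. Of the 35 sets, 22 lay above the median level of all probe sets. In a fit of only the 22518 probe sets above that level, 5780 passed, 3293 higher and 2487 lower in delta. The shares over all probe sets are thus not matched to the members for level. The EGFP+ arrays of the alleles did not overlap in 17 of the 35 sets, 2 higher and 15 lower in delta, against 29.0% of all probe sets.

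Pdlim4 was the member that rose in the delta EGFP+ arrays, at 7.91 ± 0.14 against 5.89 ± 0.27 in the WT EGFP+ arrays (SD, n = 3 each), a 4.04-fold higher level (difference 2.01, SE 0.16, limma adjusted p = 0.00032). Als2cl was 3.65-fold lower, at 7.37 ± 0.07 in delta against 9.23 ± 0.24 in WT EGFP+ arrays (SD, n = 3 each; difference -1.87, SE 0.14, limma adjusted p = 0.00027), and its second probe set fell by 1.09 (limma adjusted p = 0.0043). Amigo2 stood at 5.21 ± 0.13 in delta and 6.93 ± 0.13 in WT EGFP+ arrays (SD, n = 3 each; difference -1.71, SE 0.12, limma adjusted p = 0.00024). Its other set, 1447769_x_at, which has the higher mean level, differed by -0.13 and did not pass (limma adjusted p = 0.53). For each of these genes all 3 delta arrays lay on 1 side of all 3 WT arrays. Within the 3 series of title numbers, each with 1 EGFP+ array of either label, Pdlim4 differed by 1.95, 2.16 and 1.93, Als2cl by -1.92, -2.05 and -1.63, and Amigo2 by -2.01, -1.57 and -1.55.

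Ntrk3 fell by 0.98 (SE 0.12, limma adjusted p = 0.0018) in its leading probe set, and its other 7 sets did not pass. Dzip1 fell by 0.72 (SE 0.13, adjusted p = 0.01) and by 0.99 in 1452792_at (adjusted p = 0.003). The remaining Dzip1 sets, 1421542_at (0.20), 1443772_at (-0.19) and 1452793_at (-0.27), did not pass. Enc1 fell by 0.72 (SE 0.19, adjusted p = 0.047) in its leading set, a call that was lost without any 1 of delta EGFP+ replicates 2 and 3 and WT EGFP+ replicates 1 and 3, with an adjusted p of 0.015 to 0.15 over all alternatives. Its set 1450061_at differed by -0.39 and did not pass (0.074).

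For the remaining 4 genes no probe set passed. Lyst differed by 0.33 in its leading set (95% interval 0.05 to 0.62, adjusted p = 0.13), the only leading set besides those of Pdlim4 and Klk1 with a difference above 0. Nacc2 differed by -0.61 (-1.10 to -0.13, adjusted p = 0.11), and Rflnb by -0.36 (-0.69 to -0.03, adjusted p = 0.16). Klk1 differed by 0.04 (-0.24 to 0.33, adjusted p = 0.89) at levels near the bottom of the scale. These intervals are not adjusted for the number of probe sets, and a missed threshold does not show that the levels were alike.

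**Figure D3:**
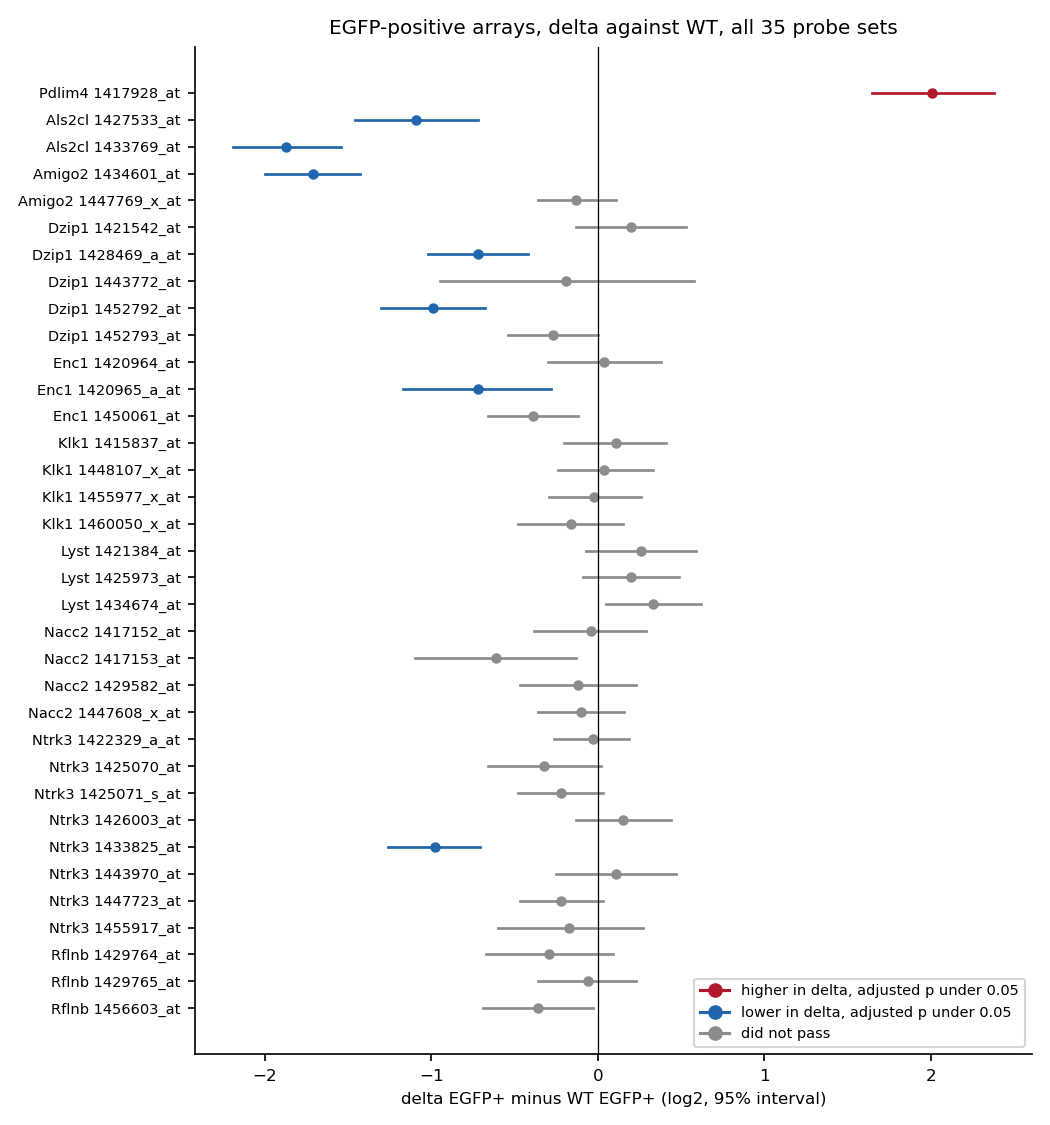
Difference of the 3 arrays labelled delta EGFP+ from the 3 labelled WT EGFP+ (log2, horizontal) for each of the 35 probe sets, with points as estimates and bars as 95% limma intervals; red and blue mark sets higher and lower in delta with an adjusted p under 0.05. Pdlim4, at 2.01, is the red point, and the lowest blue point is Als2cl at -1.87.

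How far the falls differed between alleles was taken as the EGFP difference with the delta allele minus that with the WT allele. It is built from the comparisons that chose the genes, so it is given with its interval as a description. For 7 of the 10 leading sets it lay between -0.70 and 0.39: it was -0.70 (95% interval -1.36 to -0.04) for Als2cl, -0.36 (-0.96 to 0.24) for Dzip1, -0.30 (-0.85 to 0.26) for Ntrk3, -0.28 (-1.25 to 0.69) for Nacc2, -0.24 (-0.80 to 0.32) for Lyst, 0.24 (-0.65 to 1.13) for Enc1 and 0.39 (-0.27 to 1.04) for Rflnb. Pdlim4 had a value of 2.20 (1.47 to 2.94), a smaller fall with the delta allele. Amigo2, at -0.93 (-1.50 to -0.36), and Klk1, at -1.86 (-2.43 to -1.29), had larger falls with it. The interval of Als2cl, -1.36 to -0.04, also lay below 0. In limma's test of this difference 18 of all probe sets passed after adjustment (0.04%), and none of the 35 was among them. Since the genes were chosen on the parts of this difference, nothing is read from that for the members. Each interval rests on single EGFP- arrays that were assumed to vary like the EGFP+ groups.

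The side of the sort on which the alleles parted varied between genes. For Pdlim4 the delta and WT arrays were 2.01 apart in EGFP+ and -0.19 apart in EGFP- cells. For Klk1 they were 0.04 apart in EGFP+ and 1.91 apart in EGFP- cells, but all 6 EGFP+ arrays were at or under the 12.4 percentile, where a difference could hardly show, so this value and the difference of falls of -1.86 rest on 1 EGFP- array against another. Als2cl (-1.87 and -1.17), Amigo2 (-1.71 and -0.78), Ntrk3 (-0.98 and -0.69), Enc1 (-0.72 and -0.96), Dzip1 (-0.72 and -0.36), Nacc2 (-0.61 and -0.33) and Rflnb (-0.36 and -0.75) had lower values with the delta allele on both sides, and Lyst had higher ones (0.33 and 0.57), where the EGFP- value compares 1 array with 1.

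**Figure D4:**
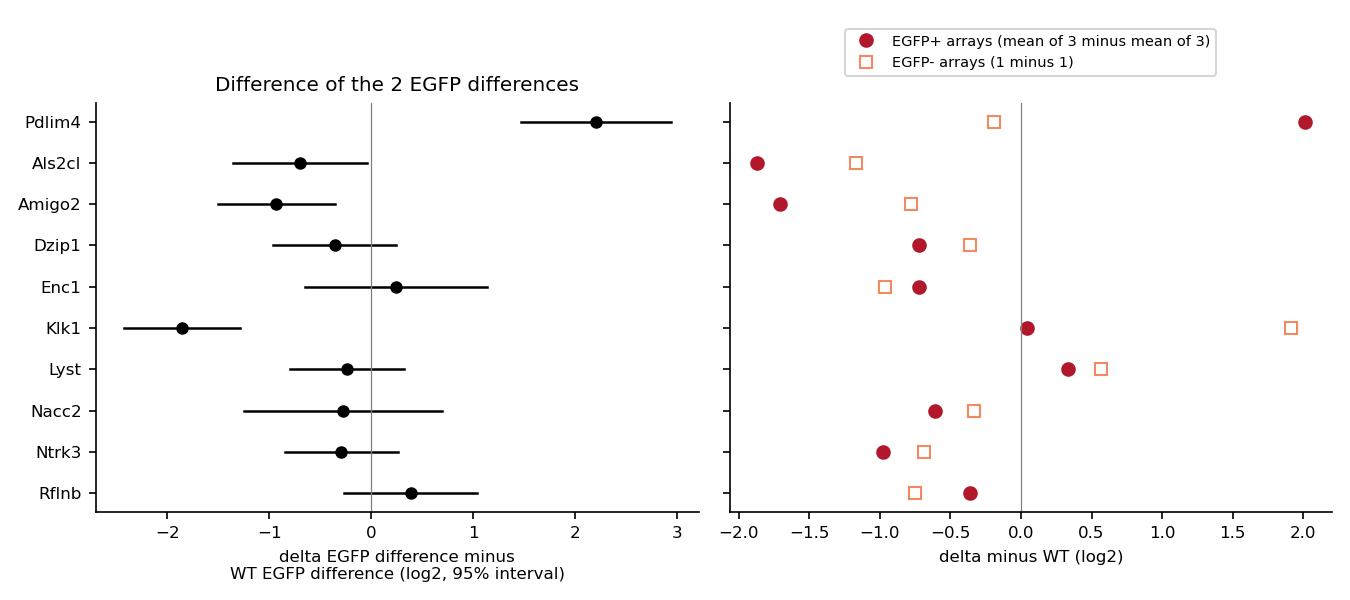
Left, the EGFP difference with the delta allele minus that with the WT allele (log2) for the leading probe set of each gene, with 95% limma intervals; right, delta minus WT in the arrays labelled EGFP+ (filled, 3 against 3) and EGFP- (open squares, 1 against 1). Pdlim4 (2.20) and Klk1 (-1.86) lie furthest from 0 on the left, and on the right Pdlim4 parts in EGFP+ arrays, while the Klk1 value rests on 1 EGFP- array against another.

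The 4 arrays whose titles carry consecutive numbers hold 1 array of each group and allow the falls to be read within that series. There Pdlim4 differed by -2.27 with the delta and -4.41 with the WT allele, Nacc2 by -3.78 and -3.35, Klk1 by -3.13 and -1.36, Ntrk3 by -2.48 and -2.19, and Als2cl by -2.41 and -1.66. Amigo2 differed by -2.28 and -1.06, Lyst by -2.01 and -1.57, Rflnb by -1.88 and -2.43, Enc1 by -1.82 and -2.31, and Dzip1 by -1.52 and -1.07. All 10 leading sets were lower in the EGFP+ array with both alleles in this series, with 1 array against 1 and no test. The EGFP- arrays of this series are the only ones there are. These values are thus part of those that chose the genes, and nothing is read from their shared direction.

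Across the 8 arrays the 10 leading sets correlated with each other at a median Pearson r of 0.833 over 45 pairs, between 0.245 and 0.989; the arrays share the sort that chose the genes, so this is a description. By the mean profile of the 10 genes, taken over the probe set of highest mean, the nearest of 1699 other genes were Igfbp4 (r = 0.9855), an insulin-like growth factor binding protein, Klhdc1 (0.9758), Tet1 (0.9504), an enzyme that oxidises methylated cytosine, Slc16a5 (0.9499), a transporter of the monocarboxylate family, and Acss2 (0.9406), which makes acetyl-CoA. The highest-mean sets of Amigo2, Klk1 and Nacc2 differed little (-0.11, 0.08 and -0.11 with the delta allele, -0.10, -0.17 and -0.57 with the WT allele). Over the leading sets the nearest were Igfbp4 (0.9708), Klhdc1 (0.9545), Slc16a5 (0.9436), Tet1 (0.931) and Macrod1 (0.9295). Igfbp4 read 10.57, 10.07 and 10.58 in the delta EGFP+ arrays and 12.11 in the delta EGFP- array, against 10.79, 10.73 and 10.86 in the WT EGFP+ arrays and 12.82 in the WT EGFP- array. Nearest to Pdlim4 were Klhdc2 (r = 0.9818), Mctp2 (0.9771) and the integrin subunit Itgb3 (0.9647). Itgb3 read 7.69, 8.19 and 7.67 in the delta EGFP+ arrays and 8.77 in the delta EGFP- array, against 6.78, 6.80 and 6.72 in the WT EGFP+ arrays and 8.81 in the WT EGFP- array, a smaller fall with the delta allele, as for Pdlim4.

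Genes related to the members by family or pathway were listed, 84 of them measured in 9 lists. In limma 0 passed in either direction with the delta allele (10 at an unadjusted p under 0.05), where 0.066% of all genes fell and 0.022% rose, and with the WT allele 1 fell and 0 rose, against 0.478% and 1.02%. That gene was Klhl5, a Kelch protein (-1.37). The medians were -0.06 with the delta and -0.03 with the WT allele. Among the relatives of Pdlim4, Pdlim1 read 9.79, 9.57 and 9.74 in the delta EGFP+ arrays and 10.45 in the delta EGFP- array, against 9.93, 9.77 and 9.53 in the WT EGFP+ arrays and 10.41 in the WT EGFP- array. Between EGFP+ arrays 6 of the 84 were higher in delta (against 10.4% of genes) and 10 lower (against 6.02%), among them Pdlim7 (1.3, limma adjusted p = 0.00063) and Pdlim5 (-0.77, 0.017).

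**Figure D5:**
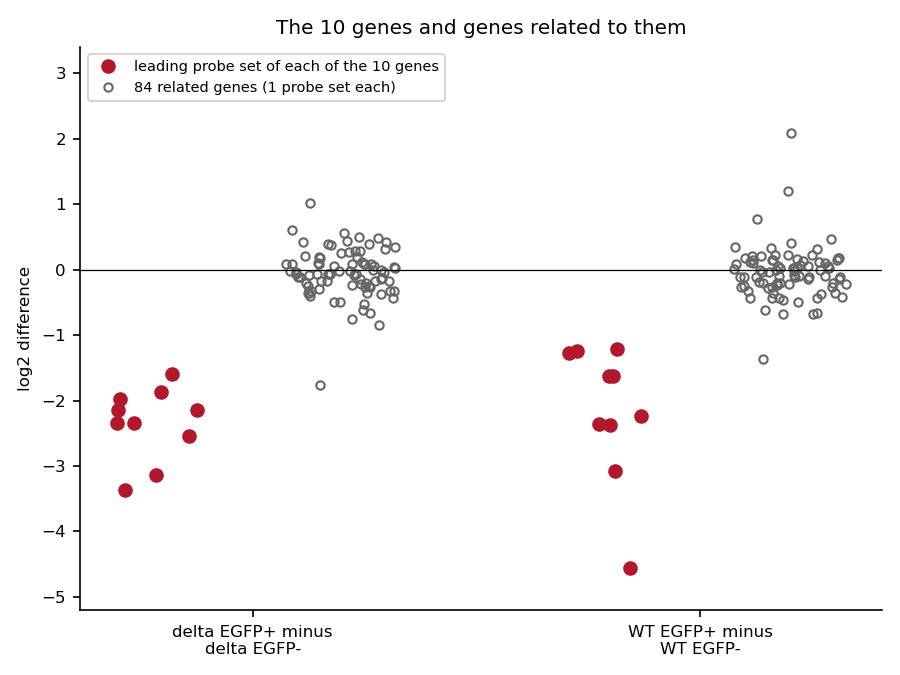
Log2 difference of EGFP+ from EGFP- arrays with the delta allele (left) and the WT allele (right), by label, for the leading probe set of each of the 10 genes (filled) and for 84 genes related to them (open); sideways spread is only for display. The related genes lie around 0, with medians of -0.06 and -0.03, between -1.77 (Klk1b27, delta) and 2.09 (Stx11, WT).

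Other gene lists show what moved beside the members. A list of 22 genes that regulatory T cells are known to keep low held 1 that fell and 0 that rose in limma with the delta allele (median -0.84, 1 higher and 9 lower at an unadjusted p under 0.05), namely Atp1b1, a subunit of the sodium pump (-2.13), while with the WT allele 7 fell and 1 rose (median -0.79), with Dapl1 (-3.56), Pde3b (-3.04), Tgfbr3 (-2.20) and Itgb3 (-2.04) the largest falls. Among 27 genes typical of those cells, 2 rose with the delta and 24 with the WT allele, with medians of 1.04 and 2.74, and 17 and 26 were higher at an unadjusted p under 0.05. The 2 were Il2ra and Foxp3, the gene that goes against the WT EGFP+ label. The mean log2 level of the 27 was 9.87 to 10.11 in the delta EGFP+ and 9.97 to 9.98 in the WT EGFP+ arrays, while the single EGFP- arrays stood at 8.84 with the delta and 6.97 with the WT allele. Of 14 genes of naive and quiescent T cells, 0 passed in limma with either allele (medians -0.82 and -0.18, with 8 and 3 lower at an unadjusted p under 0.05). Between EGFP+ arrays 12 of the 14 were lower in delta than in WT (median -1.33), against 6.02% of all genes. The mean log2 level of that list was 10.11 to 10.13 in the delta EGFP+ arrays and 10.89 in the delta EGFP- array, against 11.28 to 11.51 in the WT EGFP+ arrays and 11.74 in the WT EGFP- array. It was thus lower with the delta allele on both sides of the sort, as the 7 genes from Als2cl to Rflnb above were, and its part in their levels was not tested. Of 24 cell cycle genes 23 were higher in delta EGFP+ arrays (median 2.67), against 10.4% of all genes, and their part was not tested either. Of 20 genes of handling stress, 1 was higher and 5 were lower in delta EGFP+ arrays (median -0.9), against 10.4% and 6.02% of all genes, with 2 to 14 lower over the alternatives. Single arrays stood apart within both groups, since the mean log2 level of that list was 9.97, 9.88 and 8.87 in delta EGFP+ replicates 1, 2 and 3 and 10.78, 9.81 and 10.82 in WT EGFP+ replicates 1, 2 and 3.

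The summed intensity of the 7 measured B cell markers was 271 to 340 in the delta EGFP+ arrays and 337 in the delta EGFP- array, against 294 to 437 in the WT EGFP+ arrays and 326 in the WT EGFP- array. That of the 5 measured NK cell markers was 284 to 394 and 436, against 150 to 233 and 338, in the same order of groups. For both markers of CD8 T cells the sums were 156 to 628 and 559, against 138 to 218 and 282. The NK sum was thus lower in the EGFP+ than in the EGFP- array of each allele, and the CD8 sum was so with the WT allele but not in every delta array. The sum of 7 stroma markers was 788 to 852 in the delta EGFP+ arrays and 1119 in the delta EGFP- array, against 1131 to 1297 in the WT EGFP+ arrays and 1364 in the WT EGFP- array. The sum was thus lower in EGFP+ arrays with both alleles. Their mean log2 level was 6.13 to 6.23 in the delta EGFP+ arrays and 6.25 in the delta EGFP- array. With the WT allele it was 6.13 to 6.23 and 6.07, so that mean did not fall. The summed intensity of 9 myeloid markers was 604 to 801 and 913, against 483 to 1673 and 517, in the same order. For 5 erythroid and platelet markers it was 245 to 288 and 239, against 250 to 283 and 284. The part of these markers in the falls was not tested. No marker can be called absent, since these values carry no detection call.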

How the data were processed

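Log2 values were taken from probe set intensity on a linear scale, which the authors made with RMA and deposited as 1 table for 8 arrays; RMA is named in the submitters' processing notes, with the version not given in the sources used here. RMA corrects background, normalizes quantiles and summarises probes, and it compresses differences at low intensity. Of 45101 probe sets, 64 controls were left out and no filter was set. Platform symbols were updated to RefSeq records (34741 of 34945 matched), and a gene outside the 10 was represented by its probe set of highest mean. In counts over all genes the members were represented in the same way. All 8 arrays entered a group-means model in limma 3.58.1 (R 4.3.3), with 4 residual and 3.72 prior degrees of freedom and two-sided tests and Benjamini-Hochberg adjustment over 45037 probe sets at 0.05. Exact permutation of 3 against 3 arrays has a smallest p of 0.1, so none is given. The fit was also run on simulated arrays. The mark set for recovered changes was missed there and lowered after the result was seen, so that run is not offered as a check.

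The 10 genes, the lists and the tests were chosen with earlier results of these data known. All members and their probe sets are named; from other lists, up to 4 genes past the threshold by size, and by likeness the 5 nearest to the members' mean profile and 3 nearest to Pdlim4, among genes above the median level with an SD of at least 0.5. The leading probe set of a gene was chosen after values were seen. Klk1b27, Pdlim1 and Stx11 were singled out after their values were seen. Alternatives left out arrays, added an offset of 16, filtered low sets, centred arrays, changed eBayes settings or took the series of title numbers as a block.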

Additional observations from a re-analysis of the deposited data

Results flagged for a closer look

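The difference of EGFP+ from EGFP- arrays differed between the alleles, by limma's test of the difference itself, in 5 genes used here to check the sort or listed as high in regulatory T cells. The 10 members were chosen on the parts of this difference, so nothing is read from their absence among these genes. Delta minus WT, the value was -3.55 for Ikzf2 (adjusted p = 0.0044), -3.67 for the activation marker Cd83 (0.045), -2.85 for the IL-2 receptor subunit Il2ra (0.045), -2.62 for the costimulatory receptor Tnfrsf4 (0.045) and 4.90 for Foxp3 (0.0044). The delta EGFP- array stood above the WT EGFP- array by 3.50 for Ikzf2, 3.80 for Cd83, 2.09 for Il2ra and 2.71 for Tnfrsf4. Each value rests on single EGFP- arrays, and for Foxp3 on the labels described above. The number of calls in this test changed strongly when single EGFP+ arrays were left out or the fit was changed, as given below.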

How the results depend on the processing

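The falls of the 10 leading probe sets lay between -3.78 and -1.30 with the delta and between -4.64 and -0.76 with the WT allele. These ranges cover 129 values per allele over the alternatives. The genes and their leading sets were chosen for these falls, and every alternative kept the same single EGFP- array of each allele. That the direction held is therefore no independent check. In delta against WT EGFP+ arrays Pdlim4 stayed between 1.76 and 2.10, and the calls of Pdlim4, Als2cl, Amigo2, Dzip1 (both called sets) and the leading set of Ntrk3 held in each of 13 alternatives. Enc1 lost its call as given above and with an offset of 16. Calls appeared under alternatives for Dzip1 1443772_at without delta EGFP+ replicate 3, alone or together with WT EGFP+ replicate 2, Enc1 1450061_at with the offset, and Nacc2 1417153_at with the title series as a block. Taking the mean of all probe sets of a gene in place of its brightest set gave Amigo2 -1.13 and -0.66 with the delta and WT allele in place of -0.11 and -0.10, Nacc2 -1.46 and -1.77 in place of -0.11 and -0.57, and Klk1 -1.53 and -0.64 in place of 0.08 and -0.17, where the sign with the delta allele turns. It brought other genes nearer to 0: Ntrk3 to -0.64 and -0.71 in place of -2.54 and -2.24, Dzip1 to -0.81 and -0.87 in place of -1.83 and -1.05, Lyst to -1.13 and -1.01 in place of -1.87 and -1.63, and Enc1 to -1.42 and -1.52 in place of -2.15 and -2.38.

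Counts over all probe sets and genes depended on single arrays. For genes lower in both comparisons, each gene, members included, was taken here by its probe set of highest mean. In the main fit these were Pdlim4, Ntrk3, Rflnb, Als2cl and Lyst, all of them members. The count given earlier for the 10 genes took any probe set of a gene. Leaving out 1 EGFP+ array gave 3355 to 7556 calls between EGFP+ groups (main 5734), 259 to 1193 in the WT EGFP comparison (main 496), 4 to 84 in the delta EGFP comparison (main 34), 2 to 85 for the difference of the comparisons (main 18) and 1 to 14 genes lower in both (main 5); the highest of each came without WT EGFP+ replicate 2. Without that array and delta EGFP+ replicate 3 together these were 7972, 1845, 325, 171 and 30. With the title series as a block they were 4706, 83, 1, 0 and 0; for the difference of the comparisons and for genes lower in both, 0 was then limma's count, with 2 residual degrees of freedom. In the delta comparison the filter on low sets gave 17 and trended, robust eBayes 64; for the difference of the comparisons the offset gave 4, the filter 3 and trended, robust eBayes 55; and subtracting array medians gave 8 genes lower in both. Among the lists, genes low in regulatory T cells fell in 1 to 10 with the WT and 0 to 6 with the delta allele, and genes high in them rose in 16 to 25 and 1 to 9. The labels give no replicate numbers, and the block on the series of title numbers, whose meaning they do not state, was the paired fit.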

Other observations

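Of 14 probe sets that were lower with both alleles past the threshold, 11 belong to the 10 genes. The genes were chosen for such falls, so nothing is read from that share. The other 3 carry no single gene symbol here. Probe set 1425518_at differed by -2.40 with the delta allele and -2.81 with the WT allele, 1426743_at by -2.43 and -2.31, and 1436512_at by -1.49 and -1.12.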
